A study of Mus musculus with 16 samples.

Results

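Cortical projection neurons are the excitatory neurons whose axons leave their own patch of cortex, and 9 transcription factor genes that mark or specify them are described here. They are Neurod1, Neurod2, Neurod6, Emx1, Tbr1, Fezf2, Bcl11b, Cux1 and Cux2. They were taken by symbol, each matched 1 row in every table, and they make up 9 of the 22440 genes listed. The series concerns DNA breaks and the genes that neurons switch on when stimulated. Of its 16 samples 4 are RNA libraries, and the 12 chromatin samples were not analysed here. All 4 libraries came from dissociated cortical neurons of Swiss-Webster mouse embryos at embryonic day 16, grown in culture with B27 supplement. In the first pair an etoposide culture, at 5 µM for a time the labels do not state, stands beside its control, called the etoposide control. In the second an NMDA culture stands beside another control, called the NMDA control. Per the labels, NMDA in most experiments meant 10 min at 50 µM and then 10 min without it. No treatment is named for either control. Etoposide traps type II topoisomerases on cut DNA, and NMDA opens a class of glutamate receptor. With 1 library per group there is no replicate check on any difference, the spread between cultures is unknown and no p-value is given.

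The cortical projection neuron programme is built in steps. Emx1 marks the dorsal progenitors from which these neurons descend. Neurod1, Neurod2 and Neurod6 are basic helix-loop-helix factors that pair with E proteins, bind E-box DNA and switch on neuronal genes as cells leave division. Layer identity follows: Tbr1 is known for layer 6 corticothalamic neurons, Fezf2 and its downstream factor Bcl11b (also called Ctip2) for layer 5 subcerebral neurons, and the cut homeodomain factors Cux1 and Cux2 for upper layer callosal neurons. None of these genes belongs to projection neurons alone. Emx1 is also active in cortical glia, and Bcl11b and Cux2 in some interneurons, so the values below describe whole cultures.

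The levels are FPKM, fragment numbers corrected for transcript length and library size, which can be set side by side between genes of a library. By the smallest steps of the values, the libraries held about 12100000 to 19500000 fragments. Their FPKM scales differ: the median of the 9533 genes at 1 FPKM or more in all 4 libraries was 5.65 and 4.18 in the etoposide pair (control, then treated) and 17.3 and 17.7 in the NMDA pair. FPKM are therefore given as deposited and, where stated, median scaled, that is divided by this median and brought to a common level. Mir5109, a microRNA locus, took 51.9% to 76.5% of each FPKM sum. All 9 genes and all 5 excitatory neuron markers (Slc17a7, Slc17a6, Camk2a, Nrgn and Grin1) were at 1 FPKM or more in every library. Astrocyte markers were also present, with summed levels of 98.4 FPKM for the etoposide control and 51.0 for its treated partner, and 880 and 858 in the NMDA pair. In bulk RNA, fewer cells of a type and less RNA per cell cannot be told apart.

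The NeuroD factors are close relatives, which bears on whether short reads can be assigned to each. The 90 coding bases below encode part of the helix-loop-helix domain, which lies in exon 2 of 2 in each gene, and were read from the mm9 genome, 5′ to 3′ on the coding strand. They lie on the minus strand at chr2:79294745-79294834 (Neurod1), chr11:98189138-98189227 (Neurod2) and chr6:55629216-55629305 (Neurod6). Capitals mark the 67 bases that are identical in all 3 genes.
Neurod1: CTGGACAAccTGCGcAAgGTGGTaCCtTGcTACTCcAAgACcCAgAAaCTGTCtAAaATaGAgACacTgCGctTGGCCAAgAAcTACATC
Neurod2: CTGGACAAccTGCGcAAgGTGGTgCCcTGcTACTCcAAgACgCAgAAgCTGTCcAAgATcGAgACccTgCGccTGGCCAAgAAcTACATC
Neurod6: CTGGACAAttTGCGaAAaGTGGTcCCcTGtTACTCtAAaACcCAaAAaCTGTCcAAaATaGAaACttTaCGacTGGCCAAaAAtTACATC
Within this stretch Neurod1 and Neurod2 share 81 of 90 bases, Neurod6 and Neurod1 71, and Neurod6 and Neurod2 70. Over the whole coding sequences the longest run identical in a pair was 25 bases, between Neurod1 and Neurod2. For Cux1 and Cux2 it was 23 bases. This stretch, too, thus holds differences between the NeuroD genes. The assignment of shared fragments is not described in the sources used here.

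Among the NeuroD factors, Neurod6 (mm9 chr6:55627813-55631257, minus strand), which marks postmitotic cortical excitatory neurons, was the most abundant of the 9 genes in every library. It stood at 28.5 FPKM in the etoposide control and 19.2 in the etoposide culture, and at 72.3 in the NMDA control and 73.8 in the NMDA culture. It was at or above 94.9% to 96.5% of all listed genes, and its share of the 9 genes' summed FPKM stayed between 42.0% and 42.9%. Neurod2 (chr11:98186731-98190959, minus strand), which acts in thalamocortical wiring and synapse maturation, was at 9.36, 6.82, 15.1 and 15.1 FPKM in the same order of libraries. Neurod1 (chr2:79292798-79296793, minus strand), an early differentiation factor, was the lowest of the 9 genes everywhere, at 1.80, 1.25, 5.34 and 5.58 FPKM. Its etoposide pair values rest on about 53 and 31 fragments. Its exons overlap those of Cerkl on the same strand and of Gm17325 on the opposite strand, so some of its fragments are of uncertain origin.

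Emx1 (chr6:85137925-85154457, plus strand) was at 5.19 and 3.48 FPKM in the etoposide pair, control first, and at 19.9 and 20.1 in the NMDA pair. The deep layer factors were at the lower end of the 9 in the NMDA pair, at ranks 6 to 8. Tbr1 (chr2:61642510-61652170, plus strand), a T-box factor, was at 3.89, 3.03, 6.71 and 7.49 FPKM in the same order. Fezf2 (chr14:13174406-13178379, minus strand), a zinc finger factor, was at 2.39, 3.69, 8.90 and 8.33 FPKM. Bcl11b (chr12:109148613-109241624, minus strand), also a zinc finger factor, was at 4.31, 1.54, 6.20 and 7.05 FPKM. Fezf2 was thus the only one of the 9 genes with a higher FPKM with etoposide than in the etoposide control, and Bcl11b had the lowest ratio between those libraries.

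The upper layer factor Cux1 (chr5:136724005-137043301, minus strand) was at 6.99 FPKM in the etoposide control and 4.02 in the etoposide culture, against 27.6 and 28.2 in the NMDA pair. Cux2 (chr5:122310225-122497834, minus strand) was at 3.98, 1.84, 10.0 and 9.15 FPKM. Cux1 was above Cux2 in all 4 libraries. The Cux1 locus also codes for a Golgi protein through shorter transcripts, which a single gene-level FPKM does not separate, and its exons overlap those of Gm16599 on the opposite strand.

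**Figure D1:**
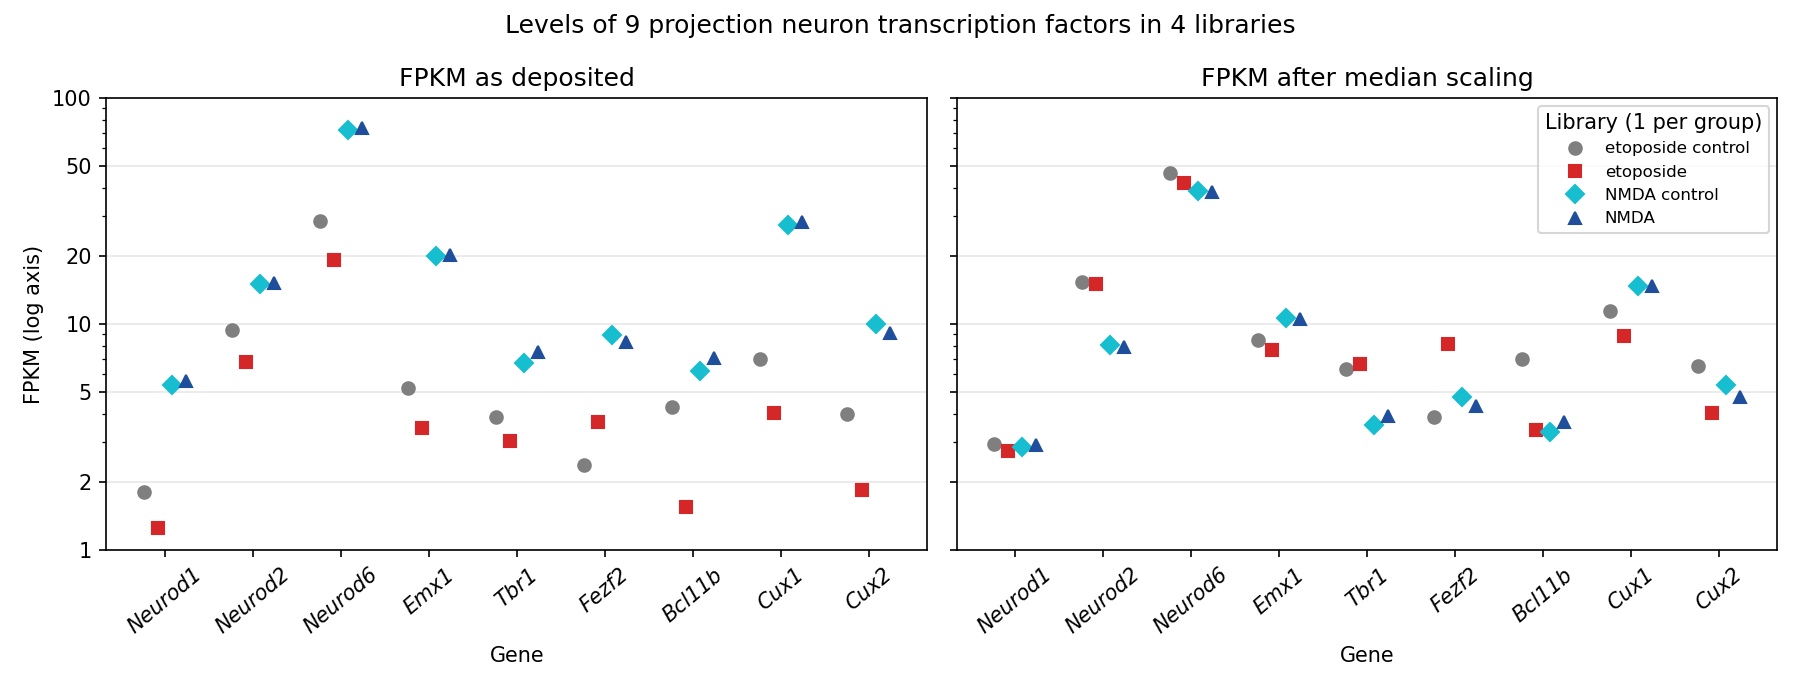
Levels of the 9 genes in the 4 RNA libraries, as deposited (left) and after median scaling (right), with FPKM on a log axis and 1 point per library. Neurod6 is highest and Neurod1 lowest in every library, and scaling narrows the gap between the controls for 6 of the 9 genes but widens it for Neurod2, Tbr1 and Bcl11b.

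The order of the 9 genes was the same in the NMDA control and with NMDA: Neurod6, Cux1, Emx1, Neurod2, Cux2, Fezf2, Tbr1, Bcl11b and Neurod1. In the etoposide control it was Neurod6, Neurod2, Cux1, Emx1, Bcl11b, Cux2, Tbr1, Fezf2 and Neurod1. With etoposide Fezf2 stood at rank 4 rather than 8, and Bcl11b at rank 8 rather than 5. With 1 library each, whether neighbours in these orders differ beyond the spread between cultures is unknown.

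With etoposide, 8 of the 9 genes were lower than in the etoposide control on the deposited scale, Bcl11b the furthest, while Fezf2 was higher. A lower value was common in this pair: 76.7% of the 10681 genes compared had a log2 fold below 0. Compared genes were those at 1 FPKM or more in either library, and log2 folds are of FPKM plus 1, which understates the change of low genes. The median log2 fold of the 9 genes was -0.46, against -0.32 for all genes compared, and 5 of the 9 lay within the middle 50% of genes. Only Bcl11b was at least 2-fold lower on this scale, beside 7.36% of all genes compared, and none of the 9 was at least 2-fold higher, beside 0.477%. After median scaling the 9 genes' median was -0.12, with 7 of 9 below 0 beside 47.4% of all genes.

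Bcl11b went from 4.31 FPKM in the control to 1.54 with etoposide, a ratio 2.79-fold lower (95% counting interval 2.32 to 3.37). The intervals come from approximate fragment numbers, here about 497 and 151, and cover counting error only, not differences between cultures. Its log2 fold was -1.06, at or below which lay 5.78% of all genes compared, and -0.87 after median scaling. It was the only one of the 9 that the authors' deposited table of etoposide differences lists, as lower. That table lists 680 genes as lower, 3.03% of all genes, and 12 as higher, 0.0535%.

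Fezf2 moved the other way, from 2.39 to 3.69 FPKM, a ratio of 1.54 (1.15 to 2.12) that rests on about 78 and 103 fragments. Its log2 fold was 0.47, above that of most genes: 96.3% of genes compared were at or below it. After median scaling the log2 fold with the pseudocount was 0.90, and the plain ratio of the scaled levels was 2.09. For Bcl11b that plain ratio was 0.484. Tbr1, the remaining deep layer factor, had a ratio of 0.780 (0.626 to 0.963) and a log2 fold of -0.28, close to the -0.32 of all genes. The 3 deep layer factors thus differed among themselves more than the others did.

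The upper layer factors were both lower with etoposide. Cux2 had a ratio 2.17-fold lower and a log2 fold of -0.81, and Cux1 a ratio 1.74-fold lower and a log2 fold of -0.67. Relative to the median of all genes these differences were -0.49 and -0.35. Emx1 had a ratio of 0.672 (0.492 to 0.924) and a log2 fold of -0.46. The NeuroD factors lay near the bulk of genes, with ratios of 0.692 (0.428 to 1.09) for Neurod1, 0.728 (0.621 to 0.852) for Neurod2 and 0.673 (0.602 to 0.753) for Neurod6. After median scaling their log2 folds were -0.07, -0.02 and -0.13.

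**Figure D2:**
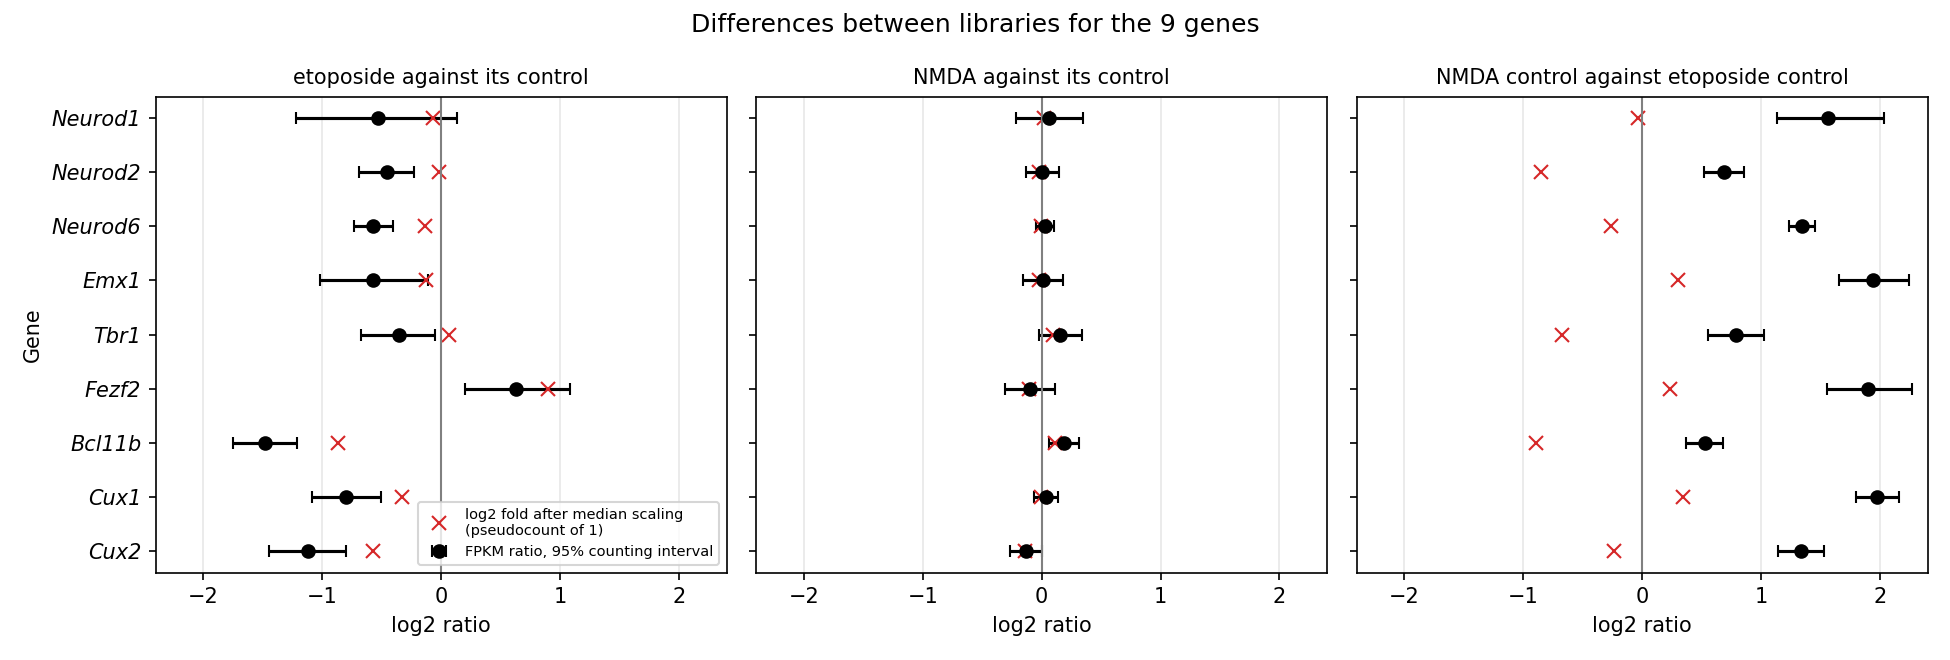
Differences between libraries for the 9 genes, on a log2 axis. Black points are plain FPKM ratios with 95% counting intervals and red crosses are log2 folds after median scaling with a pseudocount of 1 FPKM. With etoposide Bcl11b lies lowest and Fezf2 alone lies above 0 on the deposited scale, while in the NMDA pair all 9 lie near 0.

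Ratios of one factor to another inside a library do not depend on the scale of that library. Fezf2 to Bcl11b was 0.554 (95% counting interval 0.431 to 0.705) in the etoposide control and 2.39 (1.84 to 3.09) in its treated partner. It was 1.44 (1.27 to 1.61) in the NMDA control and 1.18 (1.04 to 1.34) in the NMDA culture. The etoposide control was therefore the only library in which Bcl11b had the higher FPKM, and the 2 controls differed from each other in this ratio. Tbr1 to Bcl11b was 0.901 (0.765 to 1.06), 1.96 (1.55 to 2.48), 1.08 (0.971 to 1.20) and 1.06 (0.954 to 1.18) in the same order, so here the etoposide library stood apart from the other 3. Neurod6 to Neurod1 was 15.8, 15.3, 13.5 and 13.2, with overlapping intervals in all 4 libraries. Neurod6 to Neurod2 was 3.04 and 2.81 in the etoposide pair and 4.80 and 4.88 in the NMDA pair. Cux1 to Cux2 was 1.76 and 2.19 in the etoposide pair, with overlapping intervals, and 2.74 and 3.08 in the NMDA pair. The ratio of Neurod6 to Neurod2 thus differed between the pairs and not, beyond counting error, within them.

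The 9 genes fall into short and long ones. The NeuroD genes and Fezf2 span 3.45 to 4.23 kb of the genome, Tbr1 9.66 kb and Emx1 16.5 kb, whereas Bcl11b spans 93.0 kb, Cux2 187.6 kb and Cux1 319.3 kb. With etoposide, the 3 long genes had the 3 lowest log2 folds of the 9. Across all genes the log2 fold also went down with span: over 5 equal groups of genes from short to long the medians were -0.09, -0.16, -0.26, -0.42 and -0.70. In the longest group, from 70.9 kb upward, 22.6% of genes were at least 2-fold lower. Spearman's rho between log2 fold and span was -0.63 across the 9 genes and -0.47 across 8880 genes that share no locus. Cux1 shares its listed locus with another gene, so it counts in the value of the 9 genes and not in that of all. Genes are not independent replicates, and these values describe this pair of libraries.

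Set against genes of like span, Cux1 was at 0.03 and Cux2 at -0.11 relative to the median of their group on the log2 scale. Bcl11b remained lower, at -0.36, and Fezf2 higher, at 0.56. On this scale of FPKM plus 1, Neurod6, at -0.46, had the lowest value of the 9 relative to its group, whose median was -0.09. Neurod2 was at -0.32, Emx1 at -0.30, Neurod1 at -0.23 and Tbr1 at -0.11. Without the pseudocount the log2 folds themselves were -0.57 for Neurod6 and -1.48 for Bcl11b, and group medians were not taken on that scale. The part of span in these differences was not tested.

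**Figure D3:**
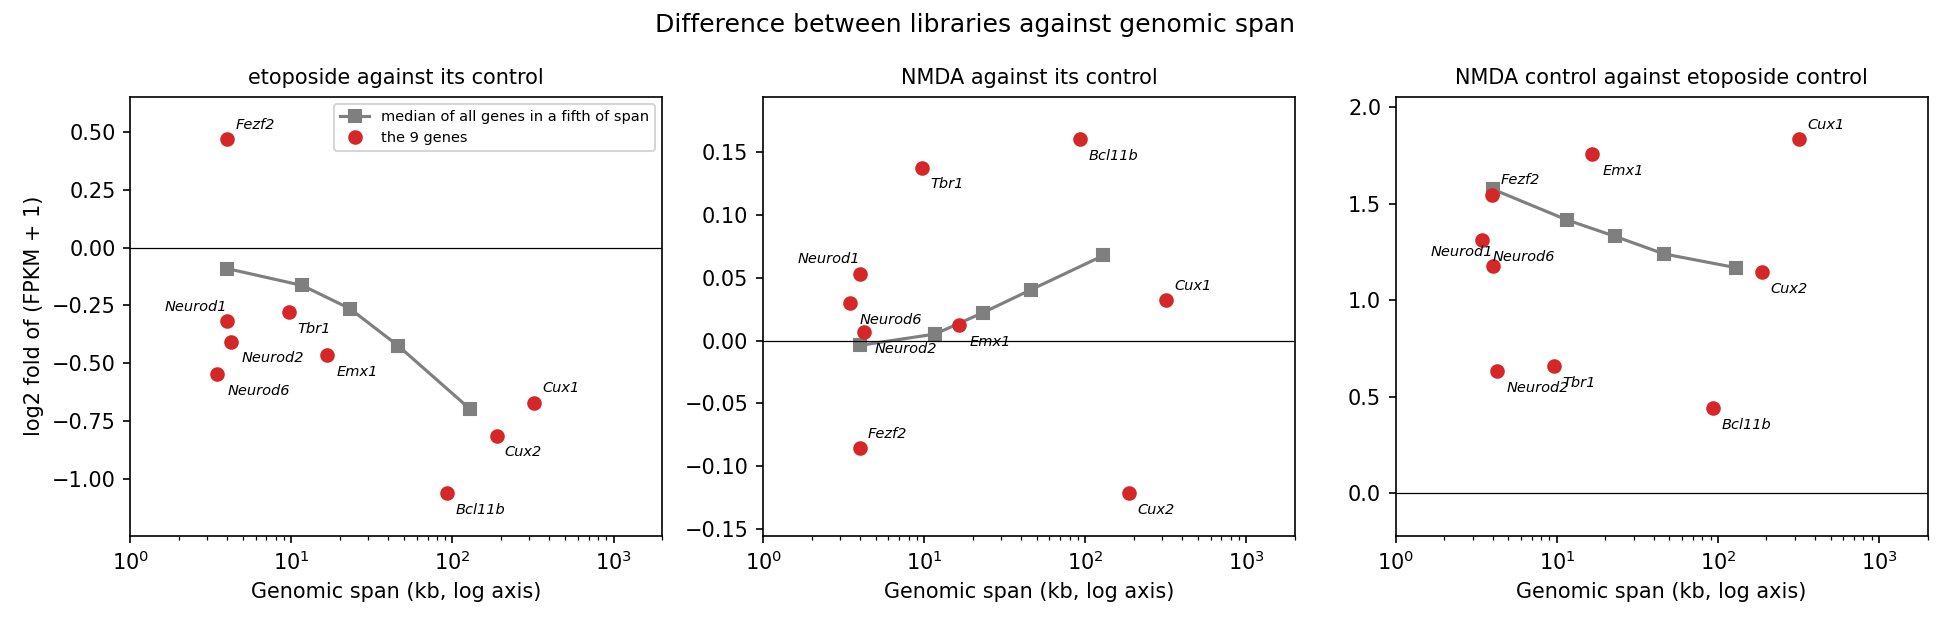
Log2 fold of FPKM plus 1 against genomic span in kb on a log axis, with the 9 genes in red and the median of all genes in each of 5 span groups in grey; the vertical scale differs between panels. With etoposide Bcl11b, Cux1 and Cux2 lie at the long, low end, where the median of all genes was -0.70, and Fezf2 lies above the short genes.

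Other factors of the same programme also had lower values with etoposide, in a pair where 76.7% of all genes compared were below 0 and 7.36% at least 2-fold lower. Of the deep layer list 10 of 12 genes were measured, all 10 were below 0 and 3 were at least 2-fold lower, with a median of -0.65. The relative of Bcl11b, Bcl11a, had 8.23 FPKM in the control against 2.81 after etoposide. Of the upper layer list all 10 were measured and below 0, 3 were at least 2-fold lower and the median was -0.65. Among them Mef2c, an activity-regulated factor, was at 52.8 and 13.5 FPKM. Of the early cortical list 4 of 10 were measured, with a median of -0.73, and Lhx2, a regional factor like Emx1, was at 15.8 and 4.51 FPKM. The E protein Tcf4, a dimer partner of NeuroD factors, was at 39.6 and 9.82 FPKM. Mef2c, Lhx2 and Tcf4 stand as lower in the authors' deposited table. The median of the 9 genes, -0.46, was nearer to that of all genes than any of these lists' medians. The median span was 9.66 kb for the 9 genes and 182.5 kb for the measured deep layer genes. For the upper layer and early cortical lists it was 9.96 and 6.22 kb. The part of span in these list medians was not tested.

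Cell type markers are read against the same shares of all genes. Excitatory neuron markers had a median log2 fold of -0.96, with 5 of 5 below 0 and 1 at least 2-fold lower. They summed to 80.7 deposited FPKM in the control library and 38.6 in the treated library, or 132 and 85.1 after median scaling. Pan-neuronal markers had a median of -0.67, with 7 of 7 measured below 0. Inhibitory neuron markers had a median of -0.42, with 7 of 10 measured below 0, and after median scaling their sum was 172 for the control and 294 for the treated culture. That higher sum rests on Sst, the peptide somatostatin, at 34.6 and 87.9 FPKM and listed as higher in the authors' deposited table. Without Sst the other 10 summed to 116 and 100.4 median scaled FPKM. Astrocyte markers had a median of -0.91, with 6 of 6 measured below 0. Progenitor markers had the lowest median of these lists, -1.06, with 4 of 7 measured and all 4 below 0. The 4 were spread widely, from -1.53 for Vim to -0.02 for Ccna2, and 3 of them lay below the median of all genes. Progenitor markers summed to 145.7 and 69.7 median scaled FPKM, and Vim, at 72.5 and 24.4 deposited FPKM, made up most of both sums. Oligodendrocyte lineage markers summed to 33.0 and 10.4 median scaled FPKM, but only 2 of 7 were measured and Olig1, at 16.6 and 3.36 deposited FPKM, made up most of both sums. Microglial markers summed to under 1 median scaled FPKM in both libraries of the pair, with C1qa listed at 0 in the control. The summed level of the 9 genes, after median scaling, was 108 and 98.8. The part of these cell type differences in the values of the 9 genes was not tested.

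**Figure D4:**
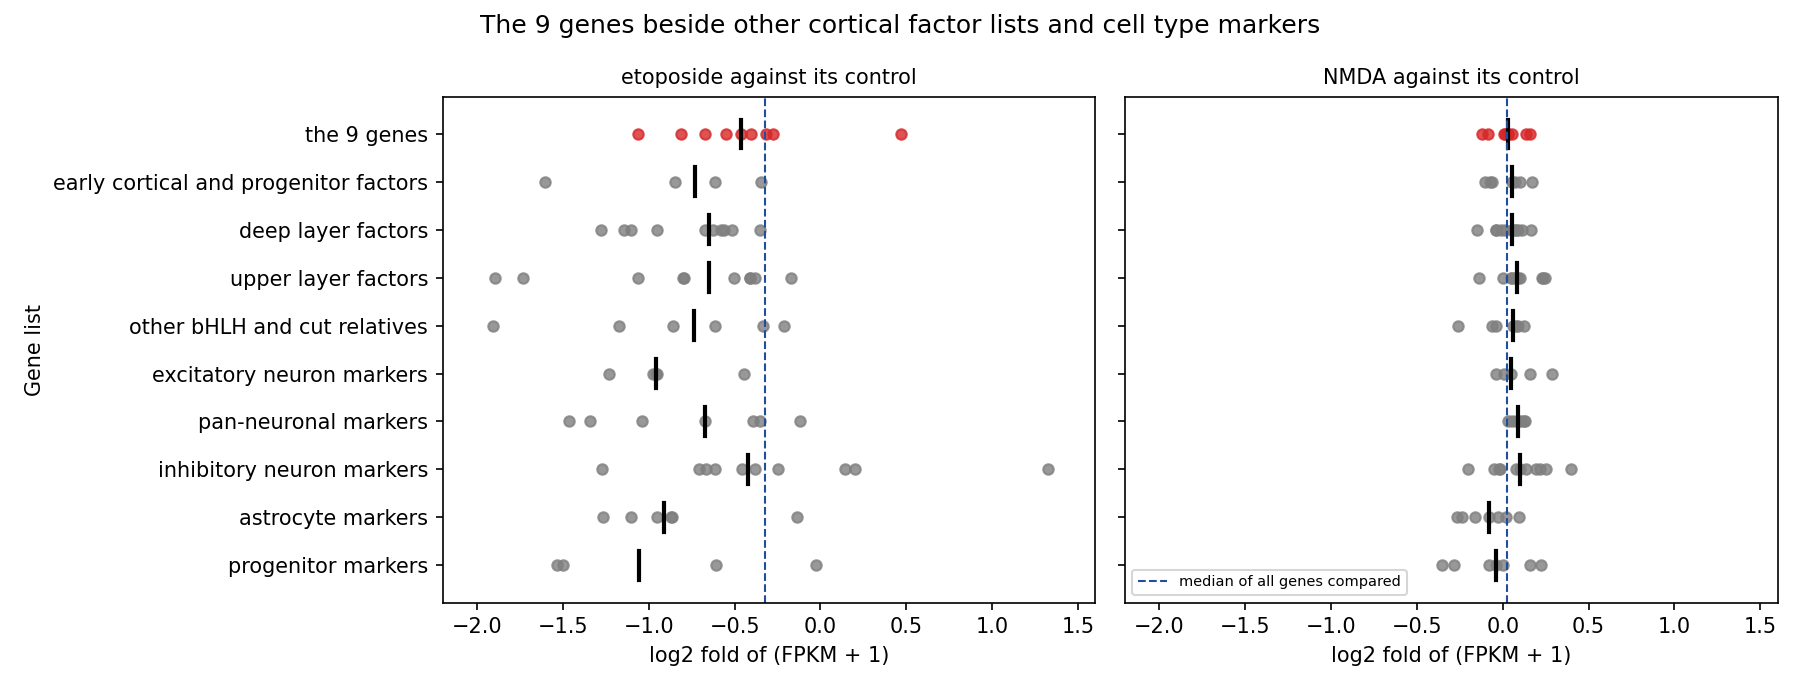
Log2 folds of the 9 genes (red) and of genes in other factor and marker lists (grey), with black bars for list medians and a dashed line for the median of all genes compared. With etoposide the 9 genes' median (-0.46) lies nearer to the dashed line (-0.32) than the factor lists' medians, and in the NMDA pair every list median lies close to 0.

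With NMDA, the 9 genes lay close to their control. Ratios ran from 0.911 for Cux2 to 1.14 for Bcl11b. The median log2 fold was 0.03, against 0.02 for the 13028 genes compared, with 2 of 9 below 0 beside 42.8% of all genes. None of the 9 was at least 2-fold lower, beside 0.729% of all genes, or at least 2-fold higher, beside 0.438%, and the authors' deposited table of NMDA differences, which holds 0.111% of all genes as higher and 0.169% as lower, lists none of them. Bcl11b, at 6.20 and 7.05 FPKM, had a ratio of 1.14 (1.04 to 1.24), and Cux2, at 10.0 and 9.15 FPKM, had 0.911 (0.829 to 0.999). These were the only intervals that did not contain 1, and they cover counting error only.

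For the other 7 genes the counting interval held 1. Neurod6 had a ratio of 1.02 (0.970 to 1.08), Cux1 1.02 (0.954 to 1.10) and Neurod2 1.00 (0.914 to 1.10), and these intervals were among the narrower ones. Tbr1 had 1.12 (0.987 to 1.26), Emx1 1.01 (0.899 to 1.14), Neurod1 1.04 (0.860 to 1.27) and Fezf2 0.936 (0.807 to 1.08). No gene of the deep layer, upper layer or early cortical lists was at least 2-fold higher or lower with NMDA, and the medians of these lists were 0.06, 0.08 and 0.05. Excitatory neuron markers had a median of 0.05, pan-neuronal markers 0.09 and astrocyte markers -0.08. The labels do not say how the NMDA culture for RNA was timed beyond the protocol for most experiments.

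The 2 controls also differed from each other. On the deposited scale all 9 genes were higher in the NMDA control, with ratios from 1.44 for Bcl11b to 3.94 for Cux1 and a median log2 fold of 1.18, against 1.32 for the 12987 genes compared, of which 1.63% were below 0. At least 2-fold higher were 6 of the 9, beside 75.1% of all genes, and none was at least 2-fold lower, beside 0.708%. Relative to the median of all genes Bcl11b was at -0.88, Neurod2 at -0.69 and Tbr1 at -0.66, while Cux1 was at 0.51 and Emx1 at 0.44. Of all genes compared, 4.06% were at or below the log2 fold of Bcl11b, 7.88% at or below that of Neurod2 and 8.70% at or below that of Tbr1. After median scaling Bcl11b was at -0.90, Neurod2 at -0.85, Tbr1 at -0.68, Cux1 at 0.34 and Emx1 at 0.30. Neurod1, at -0.03, was nearest to no difference.

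Glial markers also differed between the controls. Astrocyte markers had a median log2 fold of 2.72 and oligodendrocyte lineage markers 2.50, against 1.32 for all genes. All 7 of each list were at least 2-fold higher in the NMDA control, as were 75.1% of all genes compared, so these counts alone say little. After median scaling the astrocyte markers summed to 161 in the etoposide control and 470 in the NMDA control. In the same order the excitatory neuron markers summed to 132 and 229, and the 9 genes to 108 and 91.9. The higher excitatory sum rests mostly on Nrgn, at 8.07 and 153 deposited FPKM, a log2 fold of 4.09. Slc17a6, at 6.00 and 11.0, had the smallest log2 fold of the 5, 0.78, below the 1.32 of all genes. Culture age, date and plating are not given for the 2 pairs, and the part of cell makeup in the differences of Bcl11b, Neurod2, Tbr1, Cux1 and Emx1 was not tested.

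The choice of control matters for the etoposide values of these genes, since both comparisons share the etoposide library. After median scaling Bcl11b was at 7.03 and 3.41 FPKM in the etoposide pair, control first, and at 3.31 and 3.67 in the NMDA pair. The etoposide control thus stood above the other 3 libraries, and against the NMDA control the log2 fold of Bcl11b with etoposide was 0.03. Fezf2 was at 3.90, 8.14, 4.76 and 4.34 in the same order, with the etoposide library above all others and a log2 fold of 0.67 against the NMDA control. Cux1 was at 11.4, 8.86, 14.7 and 14.7, lowest with etoposide, and Cux2 at 6.50, 4.05, 5.36 and 4.76, also lowest with etoposide. Against the NMDA control their log2 folds were -0.67 and -0.33. Emx1 was likewise lowest with etoposide, at 8.46, 7.68, 10.7 and 10.5. Tbr1, at 6.34, 6.68, 3.58 and 3.90, and Neurod2, at 15.3, 15.0, 8.04 and 7.88, differed between the pairs and hardly within them.

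Over the 4 libraries, genes were ranked by how like their pattern was to that of each factor, among 9532 candidates. The measure was the distance between log2 values of deposited FPKM plus 1, after removing each gene's mean. Adding 1 flattens the pattern of low genes, so a small distance need not mean like ratios. Neurod1, for example, was at 1.80 and 5.34 FPKM in the 2 controls, and its nearest gene Txnl4a at 18.3 and 42.5. With 4 points this is a description. The nearest were Txnl4a and Smek2 for Neurod1, Tmem110 and Tmem145 for Neurod2, Mtdh and Dusp8 for Neurod6, and Gclc and Zdhhc6 for Emx1. For Tbr1 they were Zkscan4 and Cdh9, for Fezf2 Zfp867 and Zfp948, for Bcl11b Aff2 and Ubash3b, and for Cux1 Sesn3 and B3gnt1. Cttn was among the nearest for Cux2. The distance to the nearest ran from 0.0066 for Neurod1 to 0.052 for Fezf2. Among the 9 genes themselves, Neurod2 and Tbr1 were nearest to each other, at 0.133, followed by Cux1 and Emx1, at 0.240. Fezf2 had the largest distance to its nearest fellow, 0.573, and Bcl11b the next, 0.516.

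Promoter windows of the 9 genes, from RefSeq on build GRCm38.p6, were searched on both strands for the E-box CAGATG preferred by NeuroD factors, the T-box core GGTGTGA, the cAMP response element TGACGTCA and the TATA box TATAAA. Cux2 has 2 windows, and in 250 bases before the start only Neurod2 and the second Cux2 window held any match. Not every start is the outermost RefSeq start of its gene. The second Cux2 start lies 2590 bases from it and the first 564, and those of Cux1 and Tbr1 lie 1609 and 1590. For Fezf2 and Bcl11b the distance is 938 and 731 bases. The Tbr1 and Emx1 windows hold no base free of annotated exons. In all 32851 windows CAGATG was present in 14.4%, GGTGTGA in 3.33%, TGACGTCA in 1.55% and TATAAA in 12.4%. The 2 stretches are shown because they hold an E-box of the kind NeuroD factors bind, which is in capitals, in the orientation of the gene. They lie on the minus strand at chr11:98329746-98329775 (Neurod2, 118 bases before the start) and chr5:122047887-122047916 (Cux2, 79 bases before).
Neurod2: agtagagagtgaCAGATGgcggcgggtccc
Cux2: gggaggggggctCATCTGaatcgatataaa
The Cux2 stretch carries the E-box as its reverse complement and ends in the TATA box match. The longest exon-free part of that window ends 67 bases before the start, at the first base of the TATA box match. A match describes letters only, and the 2 genes differed in the etoposide pair, with log2 folds of -0.41 for Neurod2 and -0.81 for Cux2.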

How the data were processed

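Per the labels' protocols, the 4 libraries came from a total RNA kit with paired-end sequencing. Cufflinks 2.0.0 and Cuffdiff, the aligners TopHat, Bowtie and BWA, HOMER, Picard and build mm9 stand in the submitters' processing notes, which assign them no step. FPKM per gene were made by the authors and used as deposited. How the authors chose the genes of their 2 comparison tables, and whether counting used strand, are not given in the sources here. Groups followed the titles, and each treated library was set against the control whose values stand beside it in the authors' deposited table.

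Log2 folds used a pseudocount of 1 FPKM and genes at 1 FPKM or more in either library, with a size rule of 2-fold. Fragment numbers were estimated from the FPKM steps of single-exon genes of at least 800 bases and the shortest full coding transcript in GENCODE on the same build. A fragment on 1 kb was worth 0.0703, 0.0829, 0.0513 and 0.0563 FPKM in the etoposide control, etoposide, NMDA control and NMDA libraries. Intervals are exact (Clopper-Pearson) at 95%. Genes that share a locus were left out of the span group medians and of the rho across all genes. Cux1 is such a gene and was set beside a group by its listed span. The named genes are the 9, up to 4 per list by size of fold with etoposide, fewer being printed, and the 2 nearest per member. A few genes named by this rule are not reported here. Starts in the tables count from 0 and had 1 added. Alternatives were another pseudocount, filter, scaling, centring and control. The members and lists were chosen with earlier results of these data known. Steps were tested on simulated data. Python 3.11.15, pandas 2.3.3, numpy 2.4.6, scipy 1.17.1 and matplotlib 3.10.9 were used.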

Additional observations from a re-analysis of the deposited data

How the results depend on the processing

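No paired analysis was possible because each group had 1 library. Depth limits the low genes most: the counting interval of the Neurod1 ratio in the etoposide pair ran from 0.428 to 1.09. Of the single-gene log2 folds under the alternatives, the sign turned in 8 of 76 with etoposide, 18 of 81 with NMDA and 28 of 72 between the controls. Within counting error stayed 57, 74 and 36. These totals include alternatives that could not turn a sign. A changed filter repeats the main fold of each gene it keeps, and another pseudocount leaves the direction as it is. The counts are therefore no measure of how robust the signs are. Causes were not tested.

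With etoposide, the members at least 2-fold lower numbered 2 with a pseudocount of 0.1 or none. With the pseudocount of 1 they numbered 0 under median scaling, relative to the median of all genes, relative to the span group and against the other control. Under median scaling this count depends on the pseudocount. The plain median scaled ratio was 0.484 for Bcl11b and 2.09 for Fezf2. The filter of at least 5 FPKM kept 4 members, not Bcl11b or Cux2, so its count of 0 says nothing about those genes. The members' median log2 fold was -0.12 under median scaling, -0.14 relative to all genes and, reversed, 0.030 against the other control, where Bcl11b, the middle gene, was also at 0.030. There Neurod2 was at 0.83, Tbr1 at 0.74 and Neurod6 at 0.13. Fezf2 kept its direction under all alternatives run. With NMDA the median reversed to -0.27 against the other control, with Neurod2 at -0.87, Bcl11b at -0.78 and Tbr1 at -0.58. Between the controls it reversed to -0.24 under median scaling, -0.89 under scaling to the FPKM sum without the highest gene, -0.14 relative to all genes and -0.26 relative to the span group. Under these 4, 0 members were at least 2-fold higher, and under sum scaling 4 were at least 2-fold lower. Neurod1 reversed to -0.032, -0.61, -0.14 and -0.40 in that order, Neurod6 to -0.26, -1.0, -0.0098 and -0.26, and Cux2 to -0.24, -0.89, -0.18 and -0.022. Fezf2 reversed to -0.39 under sum scaling and -0.030 relative to the span group, and Cux1 and Emx1 to -0.36 and -0.39 under sum scaling. Neurod2, Bcl11b and Tbr1 turned furthest, to -1.55, -1.54 and -1.32 under sum scaling, and were below 0 under all 4.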
